A study of Apis mellifera carnica with 38 samples.

Results

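The 150 genes described here were the most fat-body-enriched genes of untreated honey bee queens (Apis mellifera carnica), followed across injections of saline, seminal fluid and semen. They were chosen by the reads of untreated virgin queens (V). Of 12332 genes counted, 5434 had a mean of 20 or more CPM (the reads on a gene per 1000000 reads on all genes) in the 5 V fat bodies. Of these, the 150 with the largest difference between mean log2(CPM + 1) in V fat bodies and in the 5 V brains were taken. That difference ran from 8.96 for LOC551268 down to 3.26 for LOC408456 and 3.24 for LOC408830, the last gene inside. LOC409060 at 3.22 and LOC551863 at 3.21 were the first genes outside. The V libraries chose the genes, so every comparison that involves them is a description without a test.

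All queens were unmated and came from a colony headed by a queen inseminated with a single drone, so they were closely related sisters. Each was marked on the thorax and had its left wing clipped. V queens were not injected. The other queens were injected with the same volume, through the membrane between abdominal tergites into the hemocoel, about a week after emergence and were collected some days later. HS queens received Hayes solution, a saline used to dilute semen, and SF queens received seminal fluid, the liquid left after sperm of diluted semen were pelleted. SE queens received semen, and both semen products came from Apis mellifera ligustica drones. Each library was 1 queen. Fat bodies came from 5 V, 5 HS, 5 SF and 5 SE queens, and brains from 5 V, 5 HS, 3 SF and 5 SE queens. A fat body sample was an eviscerated abdominal cuticle with the fat body that lines it, so epidermis, oenocytes and muscle of the body wall could be in it. Injected queens differed from V queens in wounding, fluid and handling at once. Per the study, most V queens also had few or no reads of deformed wing virus, a common RNA virus of honey bees, unlike most injected queens. These differences cannot be told apart here.

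The fat body is the insect counterpart of liver and adipose tissue. It stores lipid, glycogen and protein, secretes most hemolymph proteins, including the yolk precursor vitellogenin, and makes immune peptides. Oenocytes lie between fat cells and epidermis and make the hydrocarbons that coat the cuticle. Sterols are taken up from food, carried on lipoproteins and converted to ecdysteroid hormones.

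Of the 150 genes, 147 were protein-coding and 3 were long noncoding RNAs. Only 24 had a name and the other 126 carried a locus number. The 20 genes of highest rank were LOC551268, LOC724114, Cyp4g11, Obp17, LOC724226, Obp21, LOC113218830, Mrjp9, Obp18, LOC102655009, LOC100577135, LOC725204, LOC409143, LOC413083, the long noncoding RNA LOC724825, LOC100578329, LOC411053, CPR22, Obp19 and LOC552320. Cyp4g11 encodes the cytochrome P450 that makes cuticular hydrocarbons in oenocytes. Obp genes encode odorant-binding proteins, small soluble carriers of hydrophobic molecules that are also made outside the antenna. Mrjp9 is a member of the major royal jelly protein family, and CPR22 encodes a cuticular protein with a chitin-binding domain.

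Some of the genes lay next to each other. On the Amel_HAv3.1 assembly, 38 of the 150 fell into 17 runs of adjacent genes. One run held Obp15, Obp16, Obp17, Obp18, Obp19 and Obp21 on chromosome 15, positions 1932182 to 1961654. They were 6 of the 7 Obp genes that reached the CPM minimum, of 19 in the count table. nAChRb2 and nAChRa9, which encode subunits of nicotinic acetylcholine receptors, lay side by side on chromosome 9, positions 11041574 to 11046966. All 4 troponin genes at the CPM minimum were among the 150 (TpnI, TpnCI, TpnCIIa and TpnCIIIa, the calcium switch of muscle), as were all 3 CPR genes at the minimum. No hexamerin, of 4 in the table, and none of 5 immune genes recognised by symbol was among them. The median gene span was 5107.5 bases against 4582.5 over all genes at the CPM minimum. Of the 150, 40 overlapped another gene (26.7% against 32.9%), and for these the counts may include reads of the partner, since the strand setting of the counting was not stated.

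Reads on genes numbered 4832119 to 29963718 per fat body library, with injected fat bodies at 4832119 to 13212533, and 8699477 to 25753740 per brain library. Redundant reads in many libraries were identified in the study as deformed wing virus, and such reads fall among those that do not align to the bee genome. The reads not aligned were 3.64% to 5.13% in V fat bodies (mean 4.09%), 53.4% to 68.4% in HS (mean 58.9%), 49.3% to 69.6% in SF (mean 58.5%) and 54.2% to 71.6% in SE (mean 63.3%). The injected groups overlapped in this share and none reached the V range. How much of it was viral was not measured here. Among injected brains, S83 (4.05%) and SP16 (6.08%) had few such reads against 22.1% to 53.6% in the others. V brains ranged from 4.24% to 34.3%, and V brains C20 (34.3%) and C49 (25.1%) lay inside the range of those other injected brains. Neither S83 nor SP16 entered the brain comparisons, as in the study, where few viral reads were the reason. The comparisons thus used 5 HS, 2 SF and 4 SE brains. Every one of the 150 genes had at least 41 reads in every injected fat body.

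Enrichment in the fat body was tested in injected queens, which had no part in choosing the genes. All 150 genes were higher in the 15 injected fat bodies than in the 11 injected brains in edgeR's quasi-likelihood test with Benjamini-Hochberg adjustment, against a background of 43% of 9149 genes. The median log2 difference was 4.71. It ran from 2.18 for LOC552251 to 9.84 for Obp15, and the value for Obp15 depends on the model's prior count because 11 of 18 brains had no read on it. For 143 genes the lowest injected fat body lay above the highest injected brain, here over all injected brains with S83 and SP16 included. The share of all genes for which this holds was not computed.

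**Figure D1:**
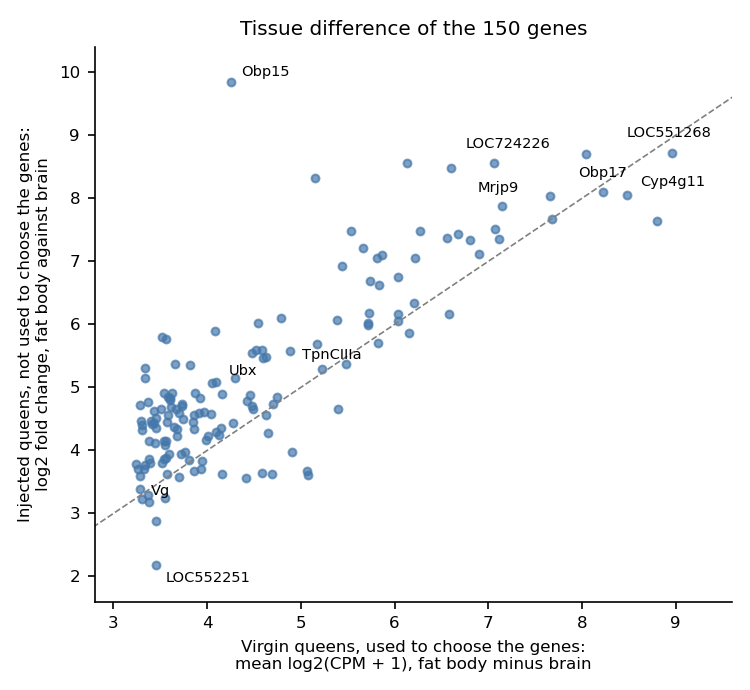
Each point is 1 of the 150 genes, with the V difference that chose it on the x axis (mean log2(CPM + 1), fat body minus brain) and the edgeR log2 fold change of injected fat bodies against injected brains on the y axis. The dashed line marks equal values, and all points lie above 2 on the y axis, from LOC552251 at 2.18 to Obp15 at 9.84.

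The 150 genes together took a smaller share of fat body reads in injected than in V queens. Since the genes were chosen for high values in the V fat bodies, the choice itself favours this direction. The share was 20.1% to 23.0% in the V fat bodies, with a mean of 21.2%. The HS fat bodies were at 11.2% to 16.9% (mean 14.9%), the SF ones at 10.2% to 16.4% (mean 13.4%) and the SE ones at 12.3% to 14.9% (mean 13.8%). No injected fat body reached the lowest V fat body, whereas the 3 injected groups overlapped one another. Vitellogenin (Vg) alone took 20.6% to 42.3% of these reads in V and 11.2% to 29.1% in injected fat bodies. Without Vg the mean share of fat body reads was 16.2% for V, 13% for HS, 11% for SF and 11.3% for SE. The share is relative to the reads on all genes, so a smaller share does not by itself show a smaller absolute amount. Fewer cells of a type and less RNA per cell also cannot be told apart in these bulk samples. The share of reads that did not align moved with injection as given above, and its part in the difference from V was not tested.

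**Figure D2:**
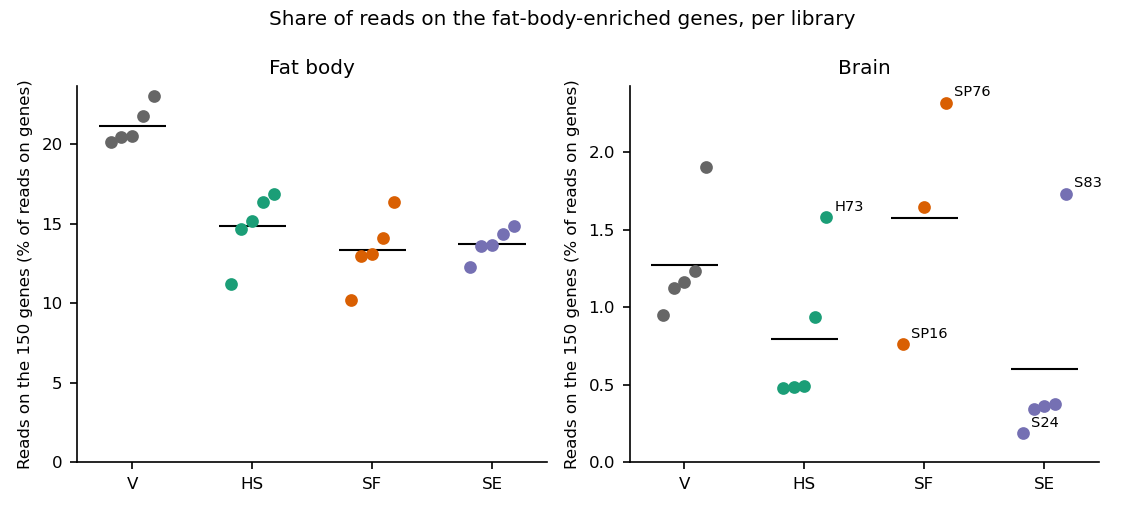
Points are libraries and show the percent of all gene reads that fell on the 150 genes, by treatment, with a bar at the group mean, for fat body and for brain on separate y axes. The V fat bodies at 20.1% to 23.0% sit above every injected fat body, and the brain library S83 at 1.73% stands apart from the other SE brains.

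Gene by gene, most of the 150 but not all were lower than in V. The rule picked genes for high values in these same V fat bodies, which by itself favours lower values in any other group. The 5434 genes set beside them had only to reach the CPM minimum. Whether the excess over them goes beyond this effect of the choice was not tested. Between the means of injected and V fat bodies, 102 of the 150 genes (68%) were lower in HS, 121 (80.7%) in SF and 117 (78%) in SE, beside 33.4%, 52.6% and 41.3% of the 5434 genes. The median log2 ratio of the 150 was -0.24 for HS, -0.58 for SF and -0.57 for SE, beside 0.08, -0.02 and 0.06 over the 5434 genes. A drop by more than 1 on the log2 scale was seen in 9, 41 and 37 of the 150, which is 6%, 27.3% and 24.7% of them, beside 0.644%, 2.83% and 2.72% of the 5434. In 14 genes all 15 injected fat bodies lay below all 5 V fat bodies (background 1.51% of 5434 genes). In 3 genes all lay above (background 2.82%).

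The 14 genes that lay lower were LOC551268, LOC724114, Obp17, LOC113218830, LOC102655009, LOC725204, LOC413083, LOC726981, LOC412788, LOC411223, LOC410432, LOC552811, LOC550941 and LOC100576773. LOC551268, the gene of highest rank, had 1799, 1315, 1197, 1814 and 1475 CPM in V fat bodies and 424 to 1187 CPM in the 15 injected ones. LOC724114 had 12683 to 16877 CPM in V and 2767 to 11181 CPM in injected fat bodies. Obp17 had 744 to 1129 CPM in V, 348 to 702 in HS, 251 to 441 in SF and 260 to 494 in SE. That HS queens lay below V in each of these genes follows from how the 14 were picked, since the 15 injected fat bodies include the HS ones.

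The 3 genes that lay higher were the long noncoding RNA LOC100576841, LOC725305 and LOC100577112. In fat bodies LOC725305 had 3148, 2782, 3139, 3155 and 3384 CPM in V, 4372 to 5538 in HS, 4113 to 8762 in SF and 5800 to 8186 in SE. LOC100577112 had 171 to 358 CPM in V and 531 to 1103 CPM in injected fat bodies. All SE fat bodies exceeded all HS fat bodies in LOC725305, but the test against HS did not pass. Its log2 change was 0.55 with a standard error of 0.16 (n = 5 per group), and values after ± are such standard errors throughout (edgeR adjusted p = 0.0634).

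Seminal fluid and semen were then each compared with Hayes solution, which asks what the semen products did beyond injection itself. Against HS, 9 of the 150 genes changed in SF fat bodies and all 9 fell. In SE fat bodies 17 changed, of which 15 fell and 2 rose. LOC726371 (a cysteine dioxygenase), LOC411893 (CYP315A1) and LOC412788 (a class B scavenger receptor) fell in both groups. In SE, and not past the threshold in SF, the Hox gene Ubx fell, and A4, a lipid-carrying hemolymph apolipoprotein, and the long noncoding RNA LOC100576841 rose. Both comparisons use the same 5 HS libraries, so they are not independent of each other. Of the genes changed, 8 were shared, which is 88.9% of the 9 and 47.1% of the 17.

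The background for these counts came from all 8201 genes tested. In SF against HS 0.841% of genes were higher and 0.817% lower, and in SE against HS 1.49% were higher and 2.21% lower. The whole set of 150 leaned the same way: 102 had a log2 change below 0 in SF (68% against 49% of all genes) and 116 in SE (77.3% against 45.6%). The median log2 change of the 150 was -0.17 in SF and -0.28 in SE, beside 0.00 and 0.02 over all genes. Sequencing lane was partly confounded with treatment. SF and HS fat bodies shared only lanes 3 and 8, and lane 7 held 2 SF libraries and no HS library, while SE and HS shared lanes 4, 5, 6 and 8. With lane as a term 0 of the 150 genes in SF and 3 in SE (LOC726371, LOC726981 and LOC100578532) were still called. The medians of the 150 were then -0.29 and -0.28. The share and the median of all genes in the fit with lane are not given, and the background above belongs to the fit without it.

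Single libraries moved these counts, which are given here without the share of all genes called in the same fit. HS queen H74 had the lowest HS value in many of the genes, such as 13214 CPM of Cyp4g11 beside 30103 to 42283 in the other HS fat bodies. Without H74, 19 genes in SF and 29 in SE were called. Without H51, H53 or H73 in turn, 3 genes in SF were called, and without H75, SP16 or SP79, 4, and without SP1, 5. In SE the count was 5 without H73, 6 without S83, 9 without H51 and 11 without H53.

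**Figure D3:**
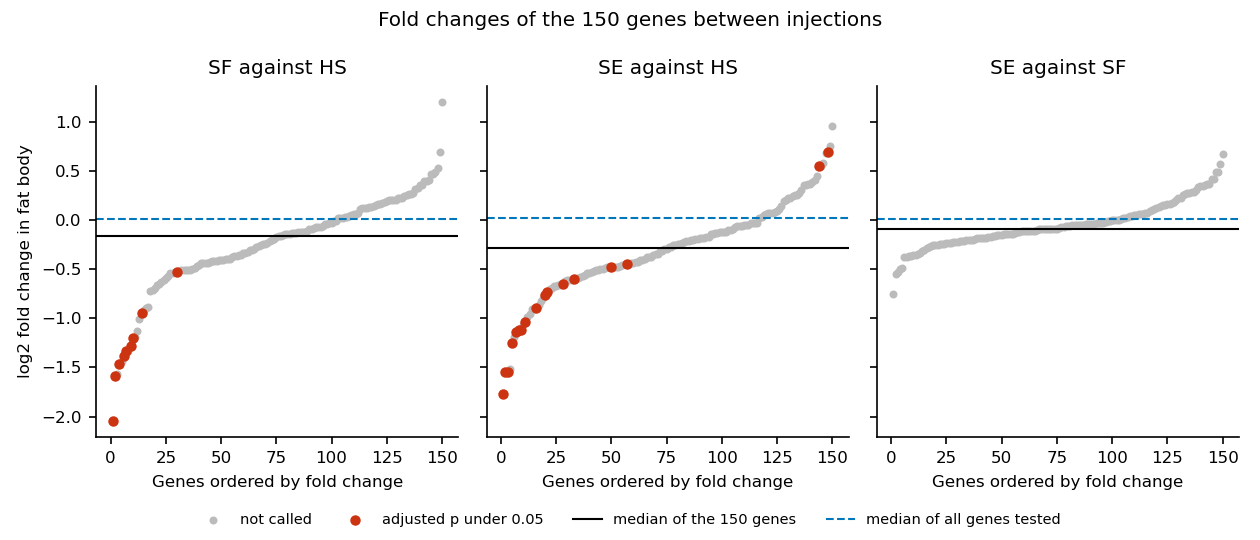
Each of 3 panels plots the edgeR log2 fold change in fat body (y axis) of the 150 genes ordered by that value (x axis), for SF against HS, SE against HS and SE against SF, with called genes in red. The median of the 150 genes (solid line) lies at -0.17, -0.28 and -0.09, below the median of all genes tested (dashed line) in each panel, and the first 2 panels share the HS libraries.

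LOC726371, which encodes a cysteine dioxygenase, the enzyme that commits cysteine to breakdown and taurine synthesis, lies on chromosome 13, positions 4343820 to 4346994. Its level in HS fat bodies was 114, 106, 159, 74.8 and 119 CPM, against 37.2, 25.2, 29.2, 58.8 and 31.0 in SF and 24.6, 19.0, 41.5, 47.8 and 32.0 in SE. Every HS queen lay above every SF and SE queen, and V queens at 114 to 148.9 CPM were at the HS level. The log2 change was -1.59 ± 0.24 in SF (adjusted p = 0.00304) and -1.77 ± 0.24 in SE (adjusted p = 0.00132), and it was called without each library in turn.

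LOC410432, on the same chromosome at positions 4329119 to 4331237, encodes an L-threonine 3-dehydrogenase, which opens the breakdown of threonine. It had 27.4 to 32.2 CPM in HS, 19.3 to 23.8 in SF and 10.7 to 24.8 in SE. Both injected groups lay wholly below HS, yet only SE passed the test (-0.73 ± 0.20, adjusted p = 0.049, against -0.36 ± 0.19, adjusted p = 0.384, in SF). LOC725456 encodes a transporter like fly NAAT1, which carries essential amino acids. It had 41.4 to 63.7 CPM in HS, 30.9 to 43.2 in SF and 22.2 to 38.6 in SE, and fell in SE (-0.77 ± 0.15, adjusted p = 0.0126).

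LOC411893 encodes CYP315A1, known in Drosophila as shadow, a mitochondrial P450 of ecdysteroid synthesis, and lies on chromosome 3, positions 8138875 to 8141925. It had 41.2, 56.0, 37.6, 22.8 and 50.3 CPM in HS, 14.5, 12, 15.6, 20.1 and 12.8 in SF and 21.3, 11.2, 20.4, 22.9 and 18.3 in SE. SF lay wholly below HS, while SE overlapped HS through queens S38 and H74. The log2 change was -1.38 ± 0.22 in SF (adjusted p = 0.00493) and -1.12 ± 0.22 in SE (adjusted p = 0.0136).

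LOC412788 encodes a class B scavenger receptor, a kind of protein that takes up lipid from lipoproteins in mammals. It had 132, 89.9, 118, 152.3 and 145 CPM in V, 54.0, 63.6, 70.2, 49.6 and 69.4 in HS, 38.4, 25.2, 24.2, 39.1 and 22.3 in SF and 22.1, 30, 37.6, 40.3 and 17.0 in SE. V, HS and the semen products formed 3 levels with no overlap between neighbours, and SF and SE shared the lowest. Against HS the log2 change was -0.95 ± 0.20 in SF (adjusted p = 0.0294) and -1.04 ± 0.20 in SE (adjusted p = 0.0132).

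LOC102655009 encodes an elongase of very long chain fatty acids and was among the 20 genes of highest rank. It had 263 to 285 CPM in V, 217, 209, 203, 116 and 215 in HS, 99.8, 40.4, 106, 117 and 127 in SF and 72.4, 88.8, 107, 103 and 64.7 in SE. The change passed in SE (-1.12 ± 0.24, adjusted p = 0.0189) and not in SF (-0.88 ± 0.24, adjusted p = 0.0767), where queen H74 at 116 CPM was the HS library inside the SF range. LOC411223, which encodes an esterase like those that break down insecticides in aphids, was called in SF. It had 133 to 293 CPM in V, 45.2 to 99.5 in HS, 13.9 to 39.7 in SF and 19.2 to 70.1 in SE, and fell in SF (-1.47 ± 0.33, adjusted p = 0.0387) but not past the threshold in SE (-0.99 ± 0.33, adjusted p = 0.0944).

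LOC726981 encodes a takeout-like protein, one of a family of secreted proteins related to juvenile hormone binding proteins. It had 1390 to 1548 CPM in V, 916, 1061, 1055, 1250 and 1267 in HS, 831, 461, 713, 441 and 637 in SF and 602, 520, 733, 679 and 383 in SE. All SF and SE queens lay below all HS queens, with a log2 change of -0.90 ± 0.20 in SE (adjusted p = 0.0205) and -0.73 ± 0.20 in SF (adjusted p = 0.074).

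A4 was the named gene that went the other way. It encodes an apolipophorin-III-like protein, which helps load lipid onto hemolymph lipoproteins, and lies on chromosome 2, positions 15188032 to 15188900. It had 1315, 1497, 843, 688 and 988 CPM in V, 1256, 1382, 1401, 968 and 1268 in HS, 1998, 1434, 1089, 2034 and 1585 in SF and 2096, 2112, 1811, 1874 and 1987 in SE. All SE queens exceeded all HS queens, and the rise was 0.69 ± 0.16 on the log2 scale (adjusted p = 0.0256). SF overlapped HS through 1 queen, at 1089 CPM, and its difference was 0.47 ± 0.16 (adjusted p = 0.149). The long noncoding RNA LOC100576841 had 485 to 715 CPM in V, 894 to 1133 in HS, 890 to 1350 in SF and 1160 to 1757 in SE, and rose in SE (0.55 ± 0.14, adjusted p = 0.0418).

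**Figure D4:**
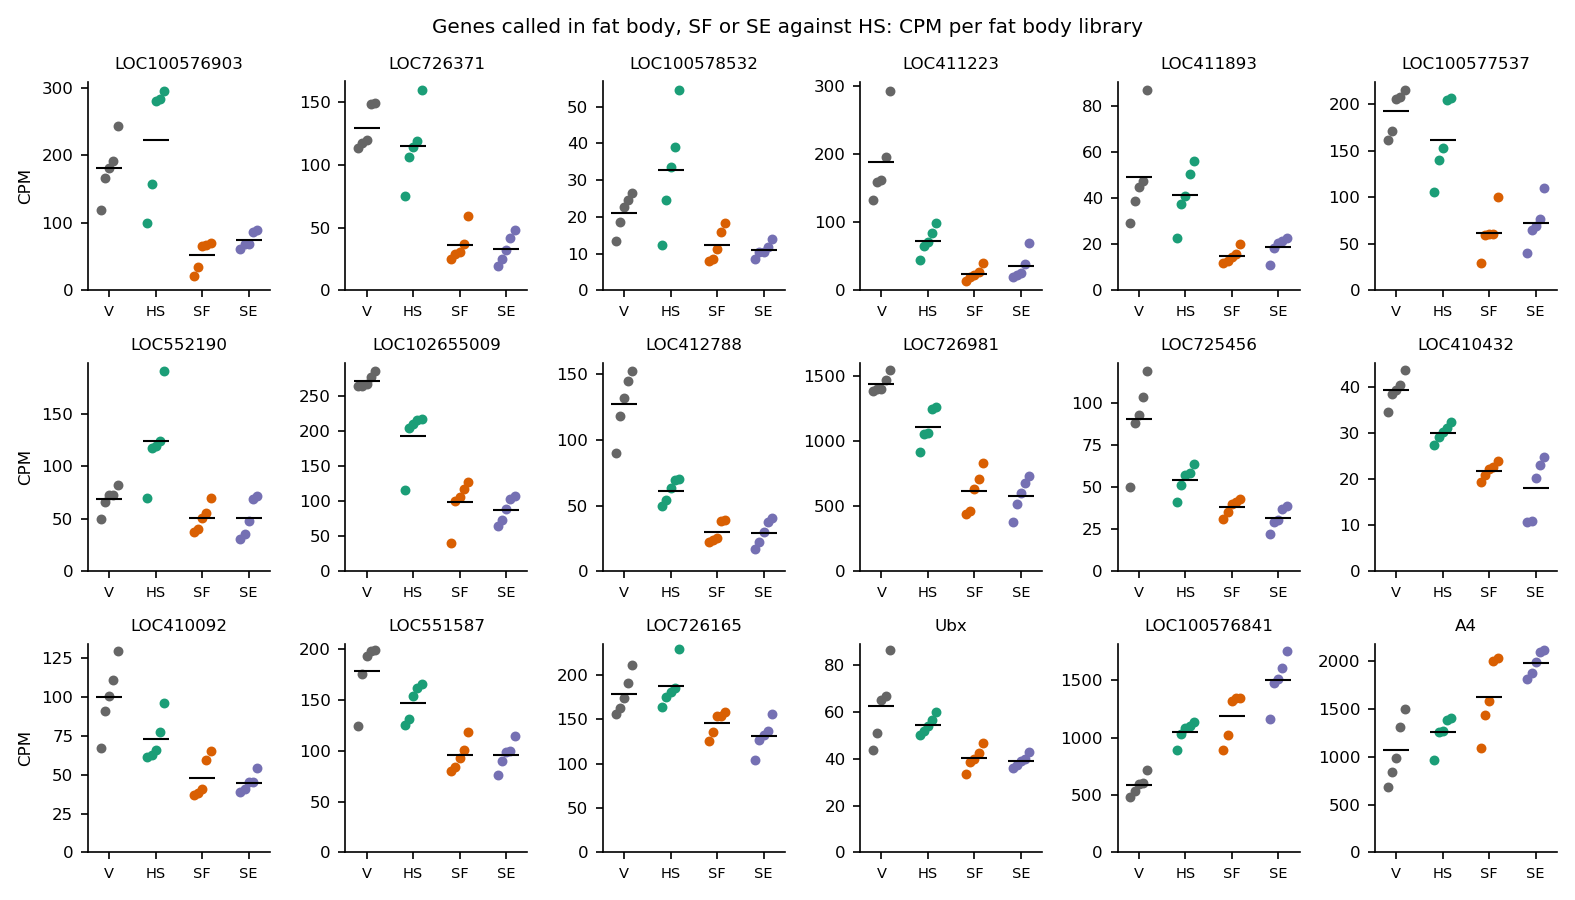
Each panel is 1 of the 18 genes called in fat body against HS and each point 1 fat body library, with CPM on a linear y axis from 0, the treatments V, HS, SF and SE on the x axis and a bar at the group mean. LOC726371 falls from 74.8 to 159 CPM in HS to 19.0 to 58.8 CPM in SF and SE, whereas A4 in SE, at 1811 to 2112 CPM, lies above every HS queen.

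Ubx, the Hox gene that marks the posterior thorax and the first abdominal segments, had 50.2 to 59.9 CPM in HS, 33.7 to 46.9 in SF and 36.2 to 43.0 in SE. HS did not overlap SF or SE, and the change was -0.45 ± 0.09 in SE (adjusted p = 0.0132) and -0.34 ± 0.09 in SF (adjusted p = 0.0612). LOC726165, whose fly counterpart is the forkhead-domain factor fd19B, had 164 to 229 CPM in HS and 104 to 156 in SE and fell in SE (-0.48 ± 0.12, adjusted p = 0.0403). LOC551587 encodes a protein like RBM38, which binds messenger RNA. It had 125 to 165 CPM in HS, 80.5 to 118 in SF and 75.7 to 115 in SE, with no overlap with HS, and fell in both (-0.53 ± 0.13, adjusted p = 0.0424, and -0.60 ± 0.13, adjusted p = 0.0178). LOC410092 is like the maturation factor of dual oxidase, an enzyme that makes hydrogen peroxide at epithelial surfaces. It had 61.3 to 96.2 CPM in HS and 39.2 to 54.5 in SE and fell in SE (-0.66 ± 0.16, adjusted p = 0.0387).

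The remaining genes that fell in both groups had no role that could be given. LOC100576903, annotated as like the leucine-rich repeat protein LRRC15, had 295, 280, 282, 100 and 158 CPM in HS, 66.8, 21.5, 34.5, 65.3 and 70.2 in SF and 85.9, 68.2, 61.9, 90.0 and 68.3 in SE. Its drop in SF was -2.04 ± 0.33 (adjusted p = 0.00472) and in SE -1.55 ± 0.32 (adjusted p = 0.0164). LOC100577537 fell by a log2 value of -1.28 ± 0.30 in SF (adjusted p = 0.0414) and -1.14 ± 0.29 in SE (adjusted p = 0.0423). For LOC100578532 the values were -1.34 ± 0.31 (adjusted p = 0.0416) and -1.54 ± 0.32 (adjusted p = 0.0157), from 12.4 to 54.5 CPM in HS to 7.86 to 18.2 in SF and 8.44 to 14 in SE. The lowest HS value in LOC100578532 and LOC100576903 was that of H74. LOC552190 had 118, 124, 119, 69.3 and 190 CPM in HS, 37.0 to 69.3 in SF and 31.0 to 71.3 in SE, and V queens, at 50.0 to 81.6, were at the level of SF and SE. Its log2 change was -1.20 ± 0.26 in SF (adjusted p = 0.034) and -1.25 ± 0.26 in SE (adjusted p = 0.0184).

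No difference between semen and seminal fluid passed the test in the fat body. Between SE and SF, 0 of the 150 genes were called by edgeR, against 0% of all 8201 genes higher and 0% lower, and DESeq2 and limma-voom also called 0. At an unadjusted p under 0.05 there were 6 of the 150 and 438 of all genes. The log2 difference ran from -0.75 to 0.67 with a median of -0.09, and the smallest adjusted p was 0.899. The genes called in SE alone were therefore not shown to differ from SF.

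Most families among the 150 held no called gene. In the Obp run the log2 change against HS was -0.54 to 0.53 in SF and -0.54 to 0.25 in SE. Obp17 had the lowest of these values in both (-0.54 ± 0.20 in each, adjusted p = 0.187 and 0.13), and Obp16 the highest. The Obp gene that did change, Obp14, was not among the 150 and rose in both groups (1.87 ± 0.23 in SF, adjusted p = 0.000674, and 1.94 ± 0.23 in SE, adjusted p = 0.000424). Of 10 Obp genes tested it was the only one called.

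Against HS, the 4 troponin genes had log2 values of -0.14 to 0.26 in SF and -0.21 to 0.35 in SE. The 3 CPR genes and Apd-2, which encodes an apidermin of the cuticle, had log2 values of -0.41 to 0.27 in SF and -0.96 to 0.31 in SE. Apd-2 was the lowest in both (-0.96 ± 0.41 in SE, adjusted p = 0.186). nAChRa9 and nAChRb2 had values of -0.04 and -0.08 in SF and -0.18 and -0.44 in SE. None of these 10 genes passed the test in either comparison.

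Marker genes of the cell types that the samples could hold were summed in the same libraries. Muscle genes (7, of which 4 are among the 150) summed to 1948 to 2599 fat body CPM in HS, 2000 to 2830 in SF and 1911 to 2998 in SE. The oenocyte and epidermis list (4 genes, of which 2 are among the 150) summed to 13395 to 42592 CPM in HS, 12174 to 27365 in SF and 19187 to 24626 in SE. Cyp4g11 was nearly all of that sum, with a mean of 30467 of 30679 CPM in HS fat bodies. There Apd-2 had a mean of 212 CPM, Apd-1 of 0.164 and Apd-3 of 0.163. The hemocyte marker PPO was at 30.8 to 112 CPM in HS, 32.0 to 483 in SF and 23.2 to 113 in SE. Neuronal genes (9, none among the 150) summed to 443 to 684 CPM over all fat bodies against 3248 to 4277 in brains, and the glial gene Eaat-2 was at 0.307 to 2.35 CPM in fat bodies against 340 to 535 in brains. TpnT, TpnCIIb and Blop were at 0 in every library. The part of these lists in the calls above was not tested.

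Among the 150, the genes that took the most reads in V fat bodies were Vg, Cyp4g11, LOC724114, LOC724421, LOC409843, LOC726750, LOC409638, LOC725305, LOC408972 and LOC409787, in that order by CPM, which is not corrected for gene length. Vg had 66486, 97431, 44729, 41439 and 48114 CPM in V, 22456, 37563, 19271, 13040 and 16396 in HS, 47745, 14691, 34487, 15294 and 19614 in SF and 25814, 23400, 17850, 35188 and 33928 in SE. In these fat bodies the V queens were all above the HS and SE queens and overlapped SF through 1 SF queen, while the injected groups overlapped throughout. Against HS the log2 difference was 0.40 ± 0.37 in SF (adjusted p = 0.66) and 0.36 ± 0.37 in SE (adjusted p = 0.635). Cyp4g11 had 31788 to 50039 CPM in V, 13214 to 42283 in HS, 12086 to 27303 in SF and 19009 to 24517 in SE. Neither difference from HS passed (-0.44 ± 0.27 in SF, adjusted p = 0.459, and -0.49 ± 0.27 in SE, adjusted p = 0.326).

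The genes differed in their spread over the injected queens. By the SD of log2(CPM + 1) over the 15 injected fat bodies, LOC410639, LOC102653899, LOC552320, LOC552523 and LOC100576903 varied most. This SD is over HS, SF and SE together, so it also holds the differences between treatments, as in LOC100576903, which was called in both comparisons. LOC410639 ranged from 7.15 to 179 CPM with a median of 66.2, and LOC552523 from 23.6 to 372 with a median of 81.4. At the other end LOC100577918 ranged from 41.3 to 55.8 CPM and LOC409787 from 1654 to 2407. The median SD over the 150 genes was 0.398. Queen SP16 had the lowest value in 38 of the 150 genes (25.3%, beside 16.5% of all genes at the CPM minimum), and H75 the highest in 39 (26%, beside 14.9%).

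In brains the 150 genes were a trace. They took 0.949% to 1.90% of reads in V brains (mean 1.27%), 0.482% to 1.58% in HS (mean 0.795%), 0.761% to 2.32% in SF (mean 1.58%) and 0.187% to 1.73% in SE (mean 0.600%). Without S83, which alone was at 1.73%, the SE brains were at 0.187% to 0.374% with a mean of 0.317%. All the retained SE brains thus lay below every other brain library. The trace was still broad, since 145 of the 150 genes had reads in every brain and none lacked reads in all of them.

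The level in brain as a share of that in fat body had a median of 6.09% over the 150 genes in V queens and 5.07% in injected queens. In injected queens it was under 1% in 23 genes and over 10% in 21, from 0.0954% for Obp15 to 27.8% for LOC552251. By mean CPM, the genes with the most reads in injected brains were Vg (4344 CPM), LOC724421 (450), LOC409843 (345), LOC725305 (250) and LOC551527 (207). Vg made up 17.9% to 68.9% of the reads on the 150 genes in a brain, with a median of 42.8%.

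The spread of the trace over injected queens, all 3 treatments together, was wider than that of the fat body level. The median SD of log2(CPM + 1) was 0.754 over retained injected brains against 0.398 over injected fat bodies, and it was larger in brain for 108 of the 150 genes. Single libraries carried the extremes. Over all 18 brains, with V, S83 and SP16 included, SP76 had the highest value in 59 genes (39.3%, beside 7.42% of all genes at the CPM minimum). S24 had the lowest in 62 (41.3%, beside 4.34%).

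**Figure D5:**
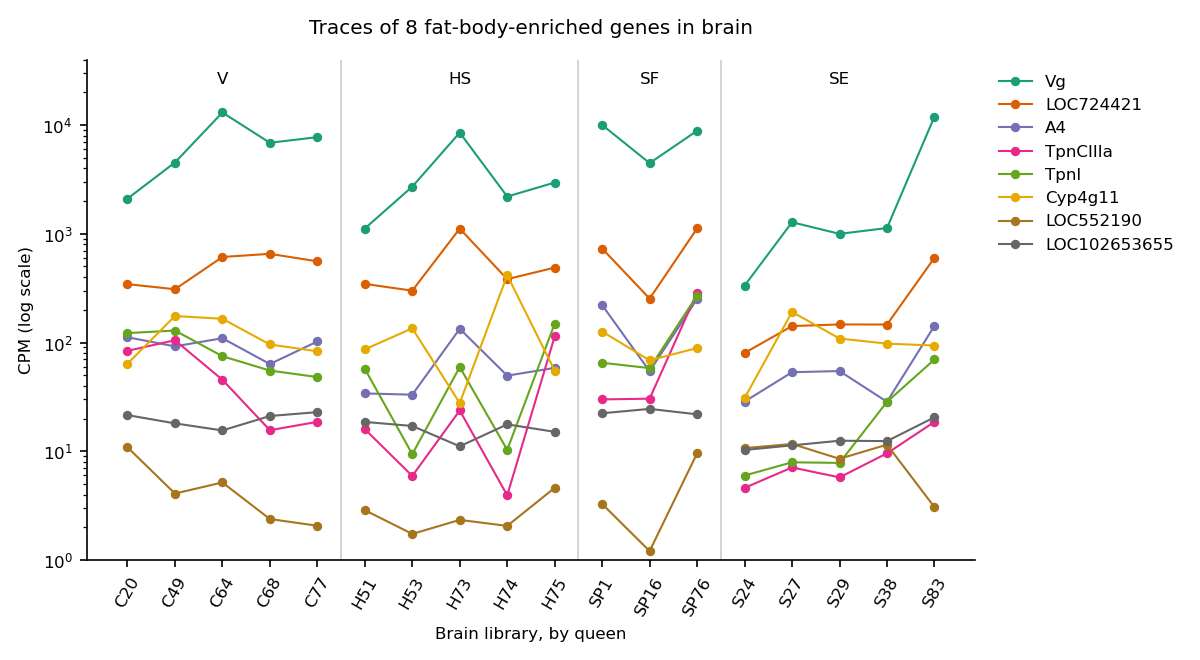
The level of 8 genes (CPM, log y axis) is plotted in each brain library (x axis, by queen and treatment), with lines that join the values of 1 gene within a treatment and stand for no order. Vg runs from 334 CPM in S24 to 13027 in a V brain, TpnCIIIa peaks at 287 CPM in SP76, and S83 and SP16 are shown although the tests left them out.

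Of the 150 genes, 134 passed the filter on low counts in the brain comparisons, in which 9030 genes were tested. In SF against HS brains, 8 of the 134 were higher and 0 lower (background 4.47% higher and 3.46% lower), with a median log2 difference of 0.90. In SE against HS, 1 was higher and 1 lower (background 0.598% and 0.642%), with a median of -0.77. In SE against SF, 0 were higher and 18 lower (background 0.432% and 1.81%), with a median of -1.69 and 121 of 134 below 0. The SF arm held 2 brains, SP1 and SP76. Without SP76 the counts were 0 for SF against HS and 0 for SE against SF, and without S24 the latter was also 0. Without SP1 they were 5 and 10, and without H53 or H74 the SF count was 2. Without S27, S29 or S38, 2 were called in SE against SF, and without H73 the count for SF against HS was 36 and for SE against HS 6. Without any other single HS or SE brain, SE against HS called 0 or 1. With S83 and SP16 added, all 3 comparisons called 0. Sequencing lane was partly confounded with treatment here too, as SF brains shared only lane 7 with HS and only lane 6 with SE. With lane as a term, LOC724421 and LOC552190 no longer passed in SE against HS. In SE against SF, Vg and TpnCIIa no longer passed, while A4 and LOC724421 still did. For all these refits the share of all genes called is not given.

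Vg took more reads than any other of these genes in injected brains. It had 2101, 4519, 13027, 6861 and 7730 CPM in V, 1117, 2710, 8508, 2198 and 2957 in HS, 9999 and 8847 in retained SF and 334, 1277, 998 and 1129 in retained SE brains. SF lay above and SE within or below the HS range, and the SE minus SF difference was -3.46 ± 0.68 on the log2 scale (adjusted p = 0.0442). SP16 and S83, not in that fit, had 4462 and 11939 CPM, so S83 went against the other SE brains. In fat body, Vg levels of SE and SF queens overlapped, as given above.

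A4 had 34.0, 33.1, 134, 49.6 and 58.4 CPM in HS brains, 221 and 252 in SF and 28.6, 53.3, 54.6 and 28.5 in SE. It was higher in SF than HS (2.0 ± 0.47, adjusted p = 0.0319) and lower in SE than SF (-2.65 ± 0.50, adjusted p = 0.0442), whereas in fat body its highest group was SE. Akhr, the receptor of adipokinetic hormone, which mobilises fat body stores, had 1.26 to 6.77 CPM in HS, 8.69 and 14.1 in SF and 1.51 to 2.91 in SE. The differences were 2.06 ± 0.49 (adjusted p = 0.0327) for SF against HS and -2.67 ± 0.52 (adjusted p = 0.0442) for SE against SF. LOC724421 had 300 to 1115 CPM in HS, 731 and 1118 in SF and 80.2 to 147 in SE. It was the gene called lower in SE than HS (-2.09 ± 0.41, adjusted p = 0.0334) and was also lower than in SF (-2.98 ± 0.48, adjusted p = 0.0219). SP16 and S83 were not in these fits. With SP16 the SF mean was 176 CPM for A4, 8.03 for Akhr and 701 for LOC724421, each below both retained SF brains. With S83 the SE mean was 61.5 CPM for A4 and 223 for LOC724421, above every retained SE brain, and 2.57 for Akhr. With S83 and SP16 added to the fit, none of these differences passed the threshold.

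Muscle genes were part of the same trace. TpnCIIIa had 16, 5.93, 23.7, 3.93 and 114 CPM in HS brains, 30 and 287 in SF and 4.61, 7.10, 5.76 and 9.58 in SE. TpnI had 9.41 to 149.1 CPM in HS, 65.1 and 270 in SF and 5.98 to 28.5 in SE, and neither gene was called. TpnCIIa, at 2.34 to 4.36 CPM in HS, 6.64 and 9.71 in SF and 1.78 to 2.98 in SE, was called higher in SF (1.37 ± 0.27, adjusted p = 0.0174) and lower in SE than SF (-1.92 ± 0.28, adjusted p = 0.0192).

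The other genes called higher in SF than HS brains were LOC411569 (0.65 ± 0.14, adjusted p = 0.0234), LOC551465 (1.25 ± 0.30, adjusted p = 0.0323), LOC552277 (1.22 ± 0.31, adjusted p = 0.0396), LOC102653655 (0.56 ± 0.15, adjusted p = 0.0442) and LOC100576841 (2.07 ± 0.57, adjusted p = 0.0492). LOC411569 and LOC102653655, called in both, were lower in SE than SF by smaller amounts than Vg (-0.66 ± 0.14, adjusted p = 0.0479, and -1.05 ± 0.15, adjusted p = 0.0185). Those called lower in SE than SF alone, beside Vg and LOC724421, were LOC100576555, LOC410228, LOC552130, LOC552832, LOC552771, LOC410149, LOC100577725, LOC409306, LOC413264, LOC408420 and LOC410484. Their log2 differences ran from -4.13 for LOC408420 to -1.86 for LOC410149. Both comparisons use the same SF brains.

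Markers of other tissues were summed in the same brains. The muscle list summed to 30.5 to 327 CPM in HS, 130 to 707 in retained SF and 24.1 to 62.7 in retained SE brains. The fat body list (5 genes, of which Vg is among the 150) summed to 1160 to 8562, 8913 to 10057 and 386 to 1328 CPM in the same order. Vg was nearly all of that sum, with a mean of 3498 of 3548 CPM in HS brains. Over all HS, SF and SE brains, S83 and SP16 included, HEX70b had means of 27.7, 32.7 and 31.1 CPM. Those of Hex110 were 18.8, 17.8 and 16.5, of Hex70a 3.91, 9.28 and 4.49 and of Hex70c 0.108, 0.225 and 0.124. The head gland genes Mrjp1 to Mrjp3 summed to 356 CPM in H75 and to no more than 6.6 in any other brain. The part of these markers in the brain differences was not tested.

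LOC552190 did not follow this order. It fell in both fat body comparisons, as given above, and was the gene called higher in SE than HS brains (1.91 ± 0.34, adjusted p = 0.0235). Its brain level was 2.87, 1.74, 2.34, 2.06 and 4.61 CPM in HS and 10.7, 11.7, 8.53 and 11.5 in retained SE, with S83 at 3.07. The difference between the tissues in this response was not tested. Cyp4g11, the oenocyte gene, had no call in brain, with 27.7 to 416 CPM in HS, 126 and 89.0 in SF and 30.8 to 191 in SE brains, and its groups overlapped.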

How the data were processed

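The authors deposited raw counts per gene and library, whole numbers without normalization, from 20 fat body and 18 brain libraries (1 queen each). Per the labels and methods, NEBNext Ultra libraries were trimmed with cutadapt 1.8.3, aligned to Amel_HAv3.1 with HISAT2 2.1.0 and counted with HTSeq 0.9.1 by gene. The strand setting of the counting was not stated. Summary lines that name no gene, such as reads not aligned, were kept out of library sizes.

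CPM, the 150 genes and their ranks were computed from these counts. Tests used edgeR 4.0.16 in R 4.3.3: genes passing filterByExpr with a minimum count of 20, TMM factors, the quasi-likelihood test with Benjamini-Hochberg adjustment over all genes tested and a threshold of 0.05. HS, SF and SE libraries of a tissue entered 1 fit without V, and S83 and SP16 brains were left out. The scripts were tested on simulated data. Alternatives included DESeq2 1.42.0, limma 3.58.1 (voom), other scalings, filters and covariates, and leaving out each library. The standard error of a log2 change was derived from the test's statistic.

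The 150 genes, gene lists and tests were chosen with earlier results of these data known. Genes named were the 20 of highest rank, the 10 of highest V level, up to 12 called per direction and comparison, 5 each for brain level and spread, and members of fixed lists. Beyond 12, the other 3 genes called lower in SE against HS fat bodies (LOC726165, LOC100577537 and LOC410432) and the other 6 in SE against SF brains (LOC410149, LOC100577725, LOC409306, LOC413264, LOC408420 and LOC410484) were named after their values were seen. LOC100577918 and LOC409787, as examples of narrow spread, and the genes whose V and injected ranges do not overlap were chosen after their values were seen. Gene positions came from the RefSeq gene table for Amel_HAv3.1. Gene descriptions were used only for called genes, so no counts by described function were made.

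Fat body and brain of a queen come from the same animal, so queens pair the tissues. The correlation of paired deviations was -0.138 to 0.194 over 11 queens. Of 73 pairs of libraries in a group, the most alike had a chi-squared of 16.3 per degree of freedom, so no library was a copy of another.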

Additional observations from a re-analysis of the deposited data

Results flagged for a closer look

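In 105 groups of 4 or 5 libraries examined for a library far from the others, 15 had one, and chance gives about 1 in 20. The share of brain reads on the 150 genes was 1.73% in S83 beside 0.187% to 0.374% in the other SE brains. HS brain H73 was high in 11 genes: Vg (8508 CPM, others 1117 to 2957), LOC724421 (1115, others 299.7 to 488), LOC100576555 (314, others 52.0 to 104), LOC410484 (175, others 42.3 to 71.6), LOC100577725 (153, others 22.6 to 53.2), A4 (134, others 33.1 to 58.4), LOC100576841 (97.8, others 15.7 to 36.5), LOC552832 (41.0, others 6.53 to 13.4), LOC409306 (15, others 3.31 to 5.68), LOC552771 (14, others 3.30 to 5.12) and Akhr (6.77, others 1.26 to 2.59). H75 had 162 CPM of LOC408420 beside 14.1 to 48.0 in the other HS brains. S24 had 80.2 CPM of LOC724421 beside 142 to 147 in the other retained SE brains. In fat body, H74 had 116 CPM of LOC102655009 beside 203 to 217 in the other HS queens. The H73 values are of genes that share 1 library and are not 11 separate events.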

How the results depend on the processing

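Every one of 953 refits of the 54 called gene and comparison pairs kept its direction, and 600 of them were still past the threshold. The refits reuse the counts from which the pairs were picked, so a kept direction was favoured from the start. The counts of the 150 genes called moved more. They are given without the share of all genes called in the same fit, so they do not show whether a setting moved these genes more than others. In fat body, DESeq2 called 16 in SF against HS and 30 in SE against HS, library sizes alone gave 16 in SF, lane as a term gave 0 and 3, and the share of reads not aligned as a term gave 11 in SE. In brain, DESeq2 called 13 in SF against HS, 19 in SE against HS and 65 in SE against SF. Library sizes alone gave 4 and 47 in the last 2 of these, limma-voom 14 in the first, and V brains added to the fit 5, 1 and 41. The share of reads not aligned as a term gave 2, 1 and 0 in the same order, and S83 and SP16 added gave 0 in each. Without Vg the mean share of reads was 16.2% in V, 11% in SF and 11.3% in SE fat bodies and 0.594% in V brains. Library sizes alone put the median log2 value of all genes at -0.10 in SF against HS fat bodies, 0.14 in SE against SF brains and -0.42 between tissues, where the medians of the 150 genes were -0.27, -1.56 and 4.32.

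Leaving out 1 library at a time gave 3 to 19 calls in SF and 5 to 29 in SE fat bodies against HS, and 0 to 0 in SE against SF. In brain it gave 0 to 36 in SF against HS, 0 to 6 in SE against HS and 0 to 10 in SE against SF. The tissue difference called 150 to 150. The mean share was then 20.7% to 21.4% in V, 14.4% to 15.8% in HS, 12.6% to 14.2% in SF and 13.5% to 14.1% in SE fat bodies. In brains it was 1.12% to 1.36%, 0.598% to 0.873%, 1.20% to 1.98% and 0.317% to 0.703% in the same order. Choosing the genes without 1 V queen kept 141 to 145 of them, and TMM scaling kept all but 1. On TMM-scaled CPM, 19 genes in place of 14 lay lower in all injected fat bodies and 3 still lay higher. The share of all genes on that scale is not given, so this does not show whether the scaling moved these genes more than others.

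With queen as the replicate block, the tissue test again called 150 of 150, so the pairing changed no call, and DESeq2 called all but 1. The block could not be fitted within a tissue, where each queen gave 1 library. Depth bounds the brain trace, in which 94 of the 150 genes had 20 or more reads in every retained injected brain. The causes of these differences between settings were not tested. Sequences were not used here and no promoter search was run.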
